A study of Mus musculus with 59 samples.

Results

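Brown adipose tissue (BAT) releases proteins that act on neighbouring cells, on nerves and on other organs, and 8 genes that encode such factors were followed through a study of thyroid hormone, cold and diet in mouse BAT. These genes, Fgf21, Fgf1, Nrg4, Bmp8b, Gdf15, Il6, Cxcl14 and Slit2, were taken by name from the 55341 genes of 3 count tables, and all 8 were listed in each table. The study asked which genes respond to thyroid hormone (TH) in BAT and how they behave under metabolic stress. It measured RNA by sequencing in male C57BL/6J mice aged 8 to 12 weeks, 59 mice in 15 groups, and each library, with its own number within a group, was taken as 1 mouse, so that n counts mice and p-values measure the spread between these samples.

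In the first experiment all 30 mice received propylthiouracil (PTU), a drug that blocks hormone synthesis and makes mice hypothyroid. Of these, 20 were wild-type (WT), with 4 mice given PTU alone and 4 mice each at 3, 6, 12 and 24 h after a single injection of T3 and T4. The other 10 were mice labelled BATKO, 5 given PTU alone and 5 at 24 h after hormone. In the second experiment mice were kept for 24 h at 4 °C (3 CTRL and 4 BATKO) or at 30 °C (4 CTRL and 5 BATKO). In the third experiment mice were fed for 3.5 days with a high-fat diet, HFD (4 CTRL and 3 BATKO), or chow (4 CTRL and 2 BATKO). The gene changed in BATKO mice and the promoter that drives the change were not given in the sources used here, nor was the genotype of the CTRL mice beyond that label.

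The libraries held 7805938 to 14615534 counted reads in WT mice of the first experiment, 13593987 to 18073627 in its BATKO mice, 8008348 to 12887313 in the temperature experiment and 7612059 to 11533900 in the diet experiment. All 10 markers of brown adipocytes, Ucp1 among them, were detected in every group. Levels are given as normalized counts, that is counts divided by the library's TMM-scaled depth relative to the mean depth of its experiment, so that they can be compared between mice of 1 experiment but not between genes. A member was tested where its mean normalized count over the mice of the fit was above 10, and a change was called where the adjusted p of edgeR's quasi-likelihood test (Benjamini-Hochberg over all genes) was below 0.05. In whole tissue, fewer cells of a type and less RNA per cell cannot be told apart.

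FGF21 is a hormone that acts through FGF receptors with beta-klotho (Klb) as partner, and FGF1 is a growth factor that binds FGF receptors without it. NRG4 signals through the receptor ERBB4 and BMP8B through BMP type I and type II receptors, and both are known as products of thermogenic adipocytes. CXCL14 is a chemokine, SLIT2 a guidance protein whose receptors are the ROBO proteins, GDF15 a stress hormone that signals through GFRAL and RET, and IL-6 a cytokine. Thyroid hormone receptors bind DNA at pairs of the half-site AGGTCA, most often spaced as the DR4 element, while transcription factors of the integrated stress response, such as ATF4, bind a composite element written here as CARE.

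The sequence upstream of the start site is shown for the 4 members whose responses differed most in kind: Cxcl14, upregulated within 3 h of hormone, Nrg4, abundant throughout, Bmp8b, late under hormone and strongly raised by cold, and Fgf21, detected above a handful of reads mainly in the cold. Each line gives the 250 bases before the RefSeq start in the GRCm38.p6 assembly, 5′ to 3′ on the strand of the gene. The capitals mark a match on either strand to the half-site AGGTCA, to CARE (TGATGNAA), to the E-box CACGTG or to the cyclic AMP element TGACGTCA, searched for as well. The windows lie at chr13:56296552-56296801 (minus strand, Cxcl14), chr9:55283626-55283875 (minus strand, Nrg4), chr4:123104911-123105160 (plus strand, Bmp8b) and chr7:45615491-45615740 (minus strand, Fgf21).
Cxcl14: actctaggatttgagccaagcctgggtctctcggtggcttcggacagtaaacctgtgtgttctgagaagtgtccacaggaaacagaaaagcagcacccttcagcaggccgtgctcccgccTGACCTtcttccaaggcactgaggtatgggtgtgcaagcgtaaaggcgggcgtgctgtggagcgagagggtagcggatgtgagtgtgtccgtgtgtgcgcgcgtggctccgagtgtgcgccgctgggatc
Nrg4: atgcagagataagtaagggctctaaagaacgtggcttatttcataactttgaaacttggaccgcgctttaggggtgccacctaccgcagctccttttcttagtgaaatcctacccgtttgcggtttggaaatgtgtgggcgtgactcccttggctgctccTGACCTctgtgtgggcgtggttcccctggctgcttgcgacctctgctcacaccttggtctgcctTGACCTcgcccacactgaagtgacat
Bmp8b: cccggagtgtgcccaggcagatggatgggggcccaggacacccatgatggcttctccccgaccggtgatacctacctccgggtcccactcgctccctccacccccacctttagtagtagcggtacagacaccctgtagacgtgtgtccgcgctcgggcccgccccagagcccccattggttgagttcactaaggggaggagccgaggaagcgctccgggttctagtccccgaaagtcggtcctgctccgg
Fgf21: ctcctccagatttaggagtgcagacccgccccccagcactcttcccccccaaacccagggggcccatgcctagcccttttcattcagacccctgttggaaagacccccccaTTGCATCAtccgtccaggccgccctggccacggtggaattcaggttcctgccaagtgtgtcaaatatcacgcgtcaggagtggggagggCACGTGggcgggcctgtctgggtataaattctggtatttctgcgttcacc
Cxcl14 held 1 half-site, 130 bases before the start, and Nrg4 held 2, at 90 and 26 bases. The Nrg4 window lies inside the annotated span of the gene, chr9:55220222-55326844, which holds 13 transcripts. It therefore stands for an internal RefSeq start and not for the 5′ end of that span. Bmp8b held no match to any of these motifs. Fgf21 held a CARE match 139 bases and an E-box 50 bases before the start. Among 32851 RefSeq promoters of the same length, 14.0% held a half-site, 3.45% a CARE match, 6.02% the E-box, 1.55% the cyclic AMP element and 0.0152% a DR4 element, and none of the 7 members with a promoter sequence held DR4 in this window. A match is a description of the letters only.

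Cxcl14 was upregulated within 3 h of hormone in WT mice. The gene lies at chr13:56288643-56296551 on the minus strand (GRCm38) and encodes a chemokine. Its normalized counts were 11.0, 21.5, 34.0 and 20.7 in the 4 hypothyroid mice and 99.9966, 139, 113 and 132 at 3 h. At 6 h they were 118, 105, 133 and 147, at 12 h 100.3, 112, 107 and 124, and at 24 h 158.5, 206, 277.5 and 202. Every treated mouse was above every hypothyroid mouse, and the mice at 3, 6 and 12 h overlapped. The mean rose 5.55-fold at 3 h (log2 2.42, SE 0.23, edgeR quasi-likelihood adjusted p = 5.14e-07), and at this time Cxcl14 was the 1 member called of 4 tested, against 9.19% of all genes tested. It stayed at 5.77-fold at 6 h and 5.08-fold at 12 h and was 9.66-fold higher at 24 h (log2 3.24, SE 0.23, edgeR adjusted p = 1.41e-09). From 3 to 6 h the difference was not called (log2 0.06, 95% interval -0.32 to 0.44, edgeR adjusted p = 0.918), and from 12 to 24 h a second rise was called (log2 0.93, SE 0.19, edgeR adjusted p = 0.00452), though not when all 30 mice of the experiment were fitted together (edgeR adjusted p = 0.0961).

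**Figure D1:**
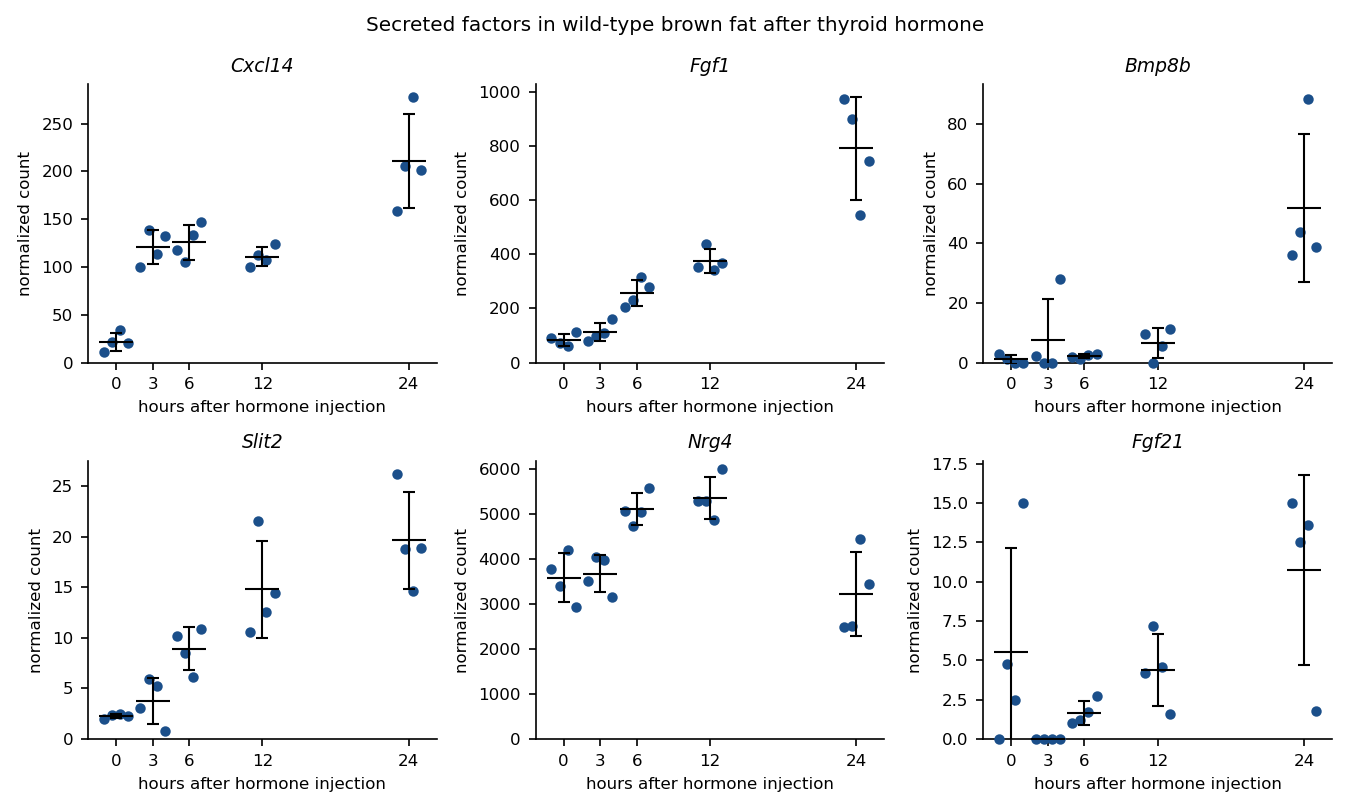
Normalized counts of 6 members in WT mice against hours after hormone injection, with 0 h standing for hypothyroid mice without hormone, where points are single mice, 4 at each time, and bars give the mean and SD. Cxcl14 is above all hypothyroid mice from 3 h on, Fgf1 from 6 h on and Bmp8b at 24 h, while Nrg4 is highest at 6 and 12 h.

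Fgf1, a growth factor with roles in adipose tissue remodelling, rose later and in steps. It lies at chr18:38838673-38929472 on the minus strand. Its normalized counts were 92.4, 71.8, 60.6 and 112 in hypothyroid mice, 81.4, 98.3, 109 and 162 at 3 h, and 207, 231, 315 and 280.2 at 6 h. They reached 353, 437, 340.1 and 366 at 12 h and 974, 900.1, 545 and 744 at 24 h. The 3 h mice overlapped the hypothyroid mice, and from 6 h on the groups followed one another without overlap. The difference at 3 h was not called (log2 0.42, 95% interval -0.03 to 0.88, edgeR adjusted p = 0.268). The mean was 3.07-fold higher at 6 h (log2 1.61, SE 0.23, edgeR adjusted p = 2.87e-05), 4.45-fold at 12 h and 9.40-fold at 24 h (log2 3.24, SE 0.23, edgeR adjusted p = 1.40e-09). Between neighbouring times Fgf1 was the 1 member that edgeR called from 3 to 6 h (log2 1.19, SE 0.22, edgeR adjusted p = 0.00764), where 2.80% of all genes were called. Nrg4 did not overlap between these times and was called by DESeq2 (adjusted p = 0.0440) and not by edgeR (log2 0.48, adjusted p = 0.0891), while Slit2 and Fgf21, below the filter, did not overlap either (exact permutation p = 0.0286 for each, the smallest possible). No member was called from 6 to 12 h, where 2.95% of all genes were, and from 12 to 24 h Fgf1 rose again (log2 1.07, SE 0.20, edgeR adjusted p = 0.00206). These time points share their hypothyroid controls.

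Nrg4, an ERBB4 ligand made by brown adipocytes, followed a different course, up and then down. It lies at chr9:55220222-55326844 on the minus strand. Its normalized counts were 3773, 3404, 4204 and 2930 in hypothyroid mice and 3517, 4037, 3974 and 3150 at 3 h, a difference of 0.02 on the log2 scale (95% interval -0.28 to 0.31, edgeR adjusted p = 0.962). They were 5061, 4722, 5050 and 5570 at 6 h and 5284, 5286, 4859 and 5987 at 12 h, above all hypothyroid mice. At 24 h they were 2477, 2508, 4447 and 3452, again within or below the hypothyroid range in 3 of the 4 mice. The rise was 1.43-fold at 6 h (log2 0.50, SE 0.15, edgeR adjusted p = 0.0211) and 1.496-fold at 12 h (log2 0.59, SE 0.15, edgeR adjusted p = 0.00586). The 6 h call was lost without WT PTU mouse B3, without WT PTU mouse B5 or without 6 h mouse B17 (edgeR adjusted p of 0.0575, 0.0721 and 0.0627). From 12 to 24 h Nrg4 fell by 0.74 on the log2 scale (SE 0.15, edgeR adjusted p = 0.00337), and at 24 h it was not different from hypothyroid mice beyond the test's threshold (log2 -0.15, 95% interval -0.45 to 0.14, edgeR adjusted p = 0.462). At 6 h and at 12 h 3 members were called, all upward (Fgf1, Nrg4 and Cxcl14), against 2996 of 13003 genes (23%) and 25.7% of all genes.

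Bmp8b, a BMP family member known to raise the response of BAT to sympathetic input, was near the limit of detection until 24 h. It lies at chr4:123105165-123132099 on the plus strand. Hypothyroid mice had 3, 1, 0 and 0 counts, and the 3 h mice had 2, 0, 0 and 34, so that 1 mouse, B11, held nearly all the reads of its group. At 6 h there were 1 to 3 counts and at 12 h 0 to 9. At 24 h the counts were 29, 35, 91 and 43, normalized counts of 36.2, 43.9, 88.6 and 38.7, above all mice of the earlier times. The summed counts of the 24 h mice were 51.7 times those of hypothyroid mice per unit of depth, with a 95% counting interval of 19.9 to 192 for 198 against 4 counts, and the fitted change was 5.497 on the log2 scale (SE 0.96, edgeR adjusted p = 0.000158). Since Bmp8b passed the filter through the 24 h mice, a difference there had to appear. Without 24 h mouse B27, the highest, Bmp8b fell below the filter and was not tested. The call against hypothyroid mice was kept in the 7 other fits that left out 1 of the compared mice. From 12 to 24 h Bmp8b was called by edgeR (log2 2.94, SE 0.74, adjusted p = 0.0140) and not by DESeq2 (adjusted p = 0.0869), and it was again not tested without B27. At 24 h 3 of the 4 tested members were called, all upward (Fgf1, Bmp8b and Cxcl14), against 32.7% of all genes, and from 12 to 24 h all 4 were called, 3 up and 1 down, against 11.4%.

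The other 4 members stayed below the filter under hormone and were compared by an exact two-sided permutation test of log2(CPM + 0.5), where CPM is the count scaled to a fixed library total. The 56 such tests of the whole study were not adjusted for one another, and 7 of them gave a p of 0.05 or less. Tests of 3 against 4, 3 against 2 or 2 against 4 mice could not, with a smallest possible exact permutation p of 0.0571, 0.2 and 0.133. The tests against hypothyroid WT mice share those mice. Slit2, a guidance protein at chr5:47983138-48307733 that spans 324596 bases, had 2, 2, 3 and 2 counts in hypothyroid mice and 3, 6, 5 and 1 at 3 h. The counts were 10, 7, 7 and 12 at 6 h. They were 10, 15, 11 and 9 at 12 h, and 24 h mice had 21, 15, 15 and 21. Each mouse from 6 h on was above each hypothyroid mouse, at the smallest p that 4 against 4 mice allow (exact permutation p = 0.0286 at each time). The ratio to hypothyroid mice was 3.86 at 6 h, 6.21 at 12 h and 8.36 at 24 h (95% counting interval 4.17 to 19.0).

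Fgf21, at chr7:45613886-45615490, had 0, 4, 3 and 13 counts in hypothyroid mice and 0 in all 4 mice at 3 h, which allows a level of up to 0.210 to 0.244 CPM before TMM scaling. At 6 h it had 1 to 3 counts, without overlap with the 3 h mice (exact permutation p = 0.0286, the smallest that 4 against 4 mice allow). It then had 1 to 5 counts at 12 h and 12, 10, 14 and 2 at 24 h. The 24 h mice overlapped the hypothyroid mice (exact permutation p = 0.343). Gdf15, at chr8:70629393-70632456, had at most 4 counts up to 12 h and 17, 3, 18 and 9 at 24 h. Its 24 h mice overlapped the hypothyroid mice (exact permutation p = 0.0571) but not the 12 h mice (exact permutation p = 0.0286, the smallest possible). Il6, at chr5:30013114-30019981, had 0 or 1 count in all 20 WT mice.

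Receptors and processing enzymes of these factors were counted beside them. Over all genes tested at 24 h, 2239 of 13003 were higher and 2013 lower (32.7% called in all). Of 4 tested FGF receptor genes 3 were lower and none higher, among them Klb, the FGF21 co-receptor (1133 ± 160 to 419 ± 70.7 normalized counts, SD, n = 4 each, log2 -1.44, SE 0.17, edgeR adjusted p = 1.37e-06), and Fgfr2 (log2 -2.28, SE 0.32, edgeR adjusted p = 1.24e-05). Of 7 genes listed as receptors of the BMP and activin family 5 were lower, and Acvr1c, a type I receptor of activin and nodal ligands, had the lowest adjusted p (log2 -1.71, SE 0.17, edgeR adjusted p = 1.86e-07). The NRG4 receptor Erbb4 was not called, with 98.8 ± 12.5 and 61.4 ± 31.9 normalized counts (SD, n = 4 each, log2 -0.70, SE 0.34, edgeR adjusted p = 0.114). Ackr3, an atypical chemokine receptor, was higher (log2 1.35, SE 0.26, edgeR adjusted p = 0.000438), and so was Ret, the GDF15 signalling receptor, which stayed at low counts (4.35 ± 0.901 to 14.1 ± 6.05 normalized counts). All 3 ligand-processing proteases, Furin, Adam17 and Pcsk6, were higher. Of 25 other tested genes for brown fat secreted factors 9 were higher and 6 lower at 24 h, with a median log2 change of 0.09 against 0.01 over all genes. Apln, which encodes the peptide apelin, rose with the lowest adjusted p (5.69 ± 1.74 to 219 ± 84.4, log2 5.25, SE 0.41, edgeR adjusted p = 4.62e-09), Kng2 rose (log2 3.03, SE 0.33, adjusted p = 7.30e-07 by the same test) and Enpp2, the gene of autotaxin, fell (log2 -1.60, SE 0.16, adjusted p = 2.13e-07). Of 10 genes of the integrated stress response 5 were higher and 1 lower, and Atf5, one of its transcription factors, rose from 590 ± 111 to 2803 ± 1148 (log2 2.25, SE 0.22, edgeR adjusted p = 1.33e-07).

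Markers of cell types moved as well. The summed level of 10 brown adipocyte markers was 7619 to 9883 CPM in hypothyroid WT mice and above all of these at each time after hormone, with 10307 to 15939 CPM at 3 h, 12733 to 15147 at 6 h, 11377 to 18801 at 12 h and 10035 to 17868 at 24 h. The 5 general adipocyte markers summed to 8914 to 9989 CPM in hypothyroid mice, to 7351 to 9188 at 3 h, with overlap, and without overlap to 7523 to 8503 at 6 h, 5126 to 6764 at 12 h and 4493 to 4708 at 24 h. The 6 white adipocyte markers, with Tcf21 at 0, summed to 127 to 137 CPM in hypothyroid mice and were lower without overlap at 3 h (67.1 to 119 CPM) and 24 h (64.0 to 123 CPM). The 6 endothelial markers, at 343 to 350.4 CPM in hypothyroid mice, were higher without overlap at 3 h (364 to 392 CPM) and lower at 12 h (272 to 339 CPM). The 5 markers of smooth muscle and pericytes were higher at 3 h, at 267 to 301 against 230.2 to 258 CPM. The sums of the 8 macrophage markers (44.5 to 76.1 CPM in hypothyroid mice and 57.7 to 102 CPM at 24 h) and of the 7 muscle markers (74.2 to 586 and 275 to 1053 CPM) overlapped. From 3 to 6 h the muscle markers went from 39.1 to 249 CPM to 268 to 1541 CPM, without overlap. The endothelial markers fell over the same time without overlap, to 281 to 348 CPM at 6 h. The part of these cells in the members' changes was not tested.

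Only genes with a mean normalized count above 50 were compared with the members over the 20 WT mice, 9216 of them for Fgf1. Among these, the genes whose levels followed the members most closely were Letm1, Cyp2f2 and Rap1gap for Fgf1 (Pearson r of 0.967, 0.962 and 0.952 of log2 levels) and Trim67, Slc7a6 and Pald1 for Cxcl14 (0.972, 0.966 and 0.961). They were Fkbp4, Hspa4l and Npnt for Bmp8b (0.890, 0.889 and 0.884) and Ptprm, Gpat4 and Gpr160 for Nrg4 (0.844, 0.814 and 0.810). The mice share the hormone schedule, so that any gene with the same time course gives a high value.

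In BATKO mice 3 libraries went against their labels by known hormone-responsive genes, and this is given before the results. The library labelled BATKO PTU 4 had 3.77 CPM of Hr, 2.50 CPM of Slco4a1 and 123 CPM of Klf9, where the other 4 libraries labelled BATKO PTU had 0.83 to 1.83 CPM of Hr and 0 to 0.15 CPM of Slco4a1. The libraries labelled BATKO TH 10 and BATKO TH 15 had 1.33 and 0.87 CPM of Hr and 0.07 and 0.35 CPM of Slco4a1, where the libraries labelled BATKO TH 7, 8 and 9 had 1.62 to 4.62 and 2.17 to 6.29 CPM. Klf9 was 86.6 and 91.5 CPM in TH 10 and 15 and 126 to 208 CPM in TH 7, 8 and 9. Gm32468, higher in WT mice after hormone, had 12 counts in PTU 4 and 0 in the other PTU libraries. It had 9, 1 and 8 counts in TH 7, 8 and 9 and 0 in TH 10 and 15. TH 8 thus lay within the range of the other PTU libraries for Hr and close to them for Gm32468, so that the split was less clean for these genes. All libraries were kept under their labels, and the tested members are given with and without these 3, a choice made after the data were seen and on genes that respond to hormone, so that the p-values without them are too small.

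With all 10 libraries no member was called in BATKO mice at 24 h of hormone, and neither was any of the 14178 genes tested (0%), by edgeR's quasi-likelihood test or by DESeq2. At an unadjusted p under 0.05 edgeR found 673 genes. Fgf1 had normalized counts of 46.1, 30.8, 28.1 and 40.2 in the libraries labelled BATKO PTU 2, 3, 11 and 17, 86.3 in PTU 4, 78.6, 42.5 and 74.9 in TH 7, 8 and 9, and 44.0 and 39.9 in TH 10 and 15 (log2 0.28, 95% interval -0.25 to 0.81, edgeR adjusted p = 0.970). Cxcl14 had 3.84, 3.24, 5.45 and 12.2 in the first 4, 37.7 in PTU 4, 40.5, 19.5 and 29.75 in TH 7, 8 and 9, and 7.33 and 7.97 in TH 10 and 15 (log2 0.76, 95% interval -0.15 to 1.67, edgeR adjusted p = 0.963). For Cxcl14 PTU 4 lay within the range of the treated libraries, and TH 10 and 15 within the range of the PTU libraries. Without them the Cxcl14 difference was 2.28 (SE 0.37, edgeR adjusted p = 0.00108), with 139 genes called, and no other member was called, with Fgf1 at 0.85 (SE 0.28, edgeR adjusted p = 0.161).

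Bmp8b ranged from 0 to 36.9 normalized counts in the libraries labelled BATKO PTU, highest in PTU 4, and from 0.917 to 37.4 in those labelled BATKO TH, with TH 10 and 15 lowest (log2 0.09, 95% interval -1.53 to 1.72, edgeR adjusted p = 0.999). Without the 3 libraries its difference was 1.94 (SE 0.90, edgeR adjusted p = 0.422). Nrg4 was 835 to 1412 and 723 to 1147 normalized counts (log2 -0.28, 95% interval -0.57 to 0.02, edgeR adjusted p = 0.963), and -0.51 without the 3 libraries (SE 0.17, edgeR adjusted p = 0.167). Gdf15, below the filter, had 1, 3, 5, 7 and 4 counts under PTU and 18, 58, 28, 1 and 0 after hormone, the last pair in TH 10 and 15, and the groups overlapped (exact permutation p = 0.206, where 5 against 5 mice could reach 0.00794). Leaving the 3 libraries aside, the counts were 1, 3, 7 and 4 against 18, 58 and 28, without overlap, and no test was made on these. Fgf21 had 0 to 1 and 0 to 8 counts, Slit2 0 to 4 in both groups, and Il6 at most 3.

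**Figure D2:**
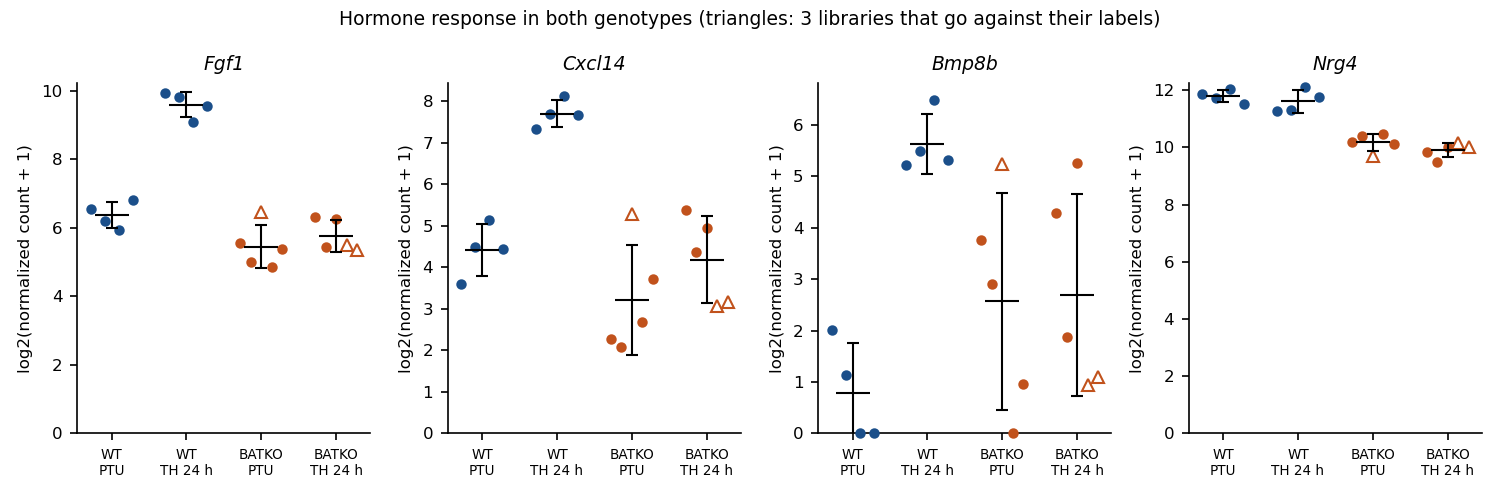
Log2(normalized count + 1) of 4 members in hypothyroid mice (PTU) and at 24 h of hormone, WT in blue and BATKO in orange, where points are single mice, bars the mean and SD, and open triangles the 3 BATKO libraries that go against their labels. Fgf1 and Cxcl14 rise in all WT mice, and for Cxcl14 the BATKO triangles lie within the range of the other BATKO group.

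The difference between the responses of the genotypes was tested directly, with 12.3% of all genes called, and 3 members were called, all with a smaller rise in BATKO mice. Of these Bmp8b passed the filter through the WT mice at 24 h, so that its call is no support for a difference. The WT and BATKO responses come from library series that are numbered separately and differ in depth, so that genotype and series cannot be told apart. For Fgf1 the BATKO response was lower by 2.96 on the log2 scale (SE 0.38, edgeR adjusted p = 1.11e-05), a call kept in all 18 fits that left out 1 mouse and without the 3 libraries (log2 -2.39, SE 0.36, edgeR adjusted p = 0.000246). For Cxcl14 the difference was -2.48 (SE 0.64, edgeR adjusted p = 0.0100), and the call was lost without the library labelled BATKO PTU 4 (log2 -1.44, edgeR adjusted p = 0.137) and without all 3 (log2 -0.96, edgeR adjusted p = 0.291). For Bmp8b it was -5.41 (SE 1.59, edgeR adjusted p = 0.0232), lost without BATKO PTU 4 (log2 -4.21, edgeR adjusted p = 0.117) and without all 3 (log2 -3.56, edgeR adjusted p = 0.218). For Nrg4 the difference was -0.13 (95% interval -0.56 to 0.31, edgeR adjusted p = 0.767), and -0.35 without the 3 libraries (SE 0.22, edgeR adjusted p = 0.405).

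Under PTU alone the genotypes differed at 70.3% of all genes tested, and the WT and BATKO libraries of this experiment carry separate numbering series with different depth, so that genotype and library series cannot be told apart. Nrg4 was lower in BATKO mice, 1172 ± 225 against 3578 ± 542 normalized counts (SD, n = 5 and 4, log2 -1.61, SE 0.16, edgeR adjusted p = 2.77e-10), without overlap, and the difference was -1.51 without the 3 libraries (SE 0.15, edgeR adjusted p = 2.03e-09). Fgf1 was lower with overlap (log2 -0.85, SE 0.28, edgeR adjusted p = 0.00841), and the difference was -1.21 without the 3 libraries (SE 0.26, edgeR adjusted p = 0.000176). Bmp8b was higher (log2 3.34, SE 1.43, edgeR adjusted p = 0.0388), a call lost without the library labelled BATKO PTU 4 (log2 2.14, edgeR adjusted p = 0.229) and without all 3 (log2 2.14, edgeR adjusted p = 0.194). It was also lost without BATKO PTU 2, WT PTU B3, B4 or B5 (edgeR adjusted p of 0.0516, 0.0671, 0.102 and 0.0834). Cxcl14 was not called (log2 -0.80, edgeR adjusted p = 0.147) and was called lower without BATKO PTU 4 (log2 -1.85, edgeR adjusted p = 0.000971) and without all 3 (log2 -1.85, edgeR adjusted p = 9.68e-05). The brown adipocyte markers summed to 2152 to 3271 CPM in BATKO and 7619 to 9883 CPM in WT mice under PTU. The 6 white adipocyte markers, without overlap, summed to 30.9 to 57.6 CPM in BATKO and 127 to 137 CPM in WT mice, with Tcf21 at 0 in both groups. The 6 endothelial markers summed to 412 to 468 and 343 to 350.4 CPM, and the 5 markers of smooth muscle and pericytes to 317 to 363 and 230.2 to 258 CPM, both higher in BATKO mice without overlap. The part of these cells in the differences was not tested.

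Bmp8b rose with cold in both genotypes. In CTRL mice Bmp8b had normalized counts of 24.3, 20.0, 9.94 and 19.0 at 30 °C and 2034, 1277 and 1287 at 4 °C, an 83.7-fold rise of the mean (log2 6.38, SE 0.46, edgeR adjusted p = 6.10e-08). In BATKO mice it had 2.56, 5.04, 26.5, 16.1 and 9.57 at 30 °C and 162, 121, 172 and 74.65 at 4 °C, an 11.1-fold rise (log2 3.47, SE 0.41, edgeR adjusted p = 9.49e-06). Neither pair of groups overlapped, and every BATKO mouse at 4 °C was below every CTRL mouse at 4 °C. The BATKO rise was smaller by 2.90 on the log2 scale (SE 0.62, edgeR adjusted p = 0.0357). That call was kept in 4 of the 16 fits that left out 1 mouse, with differences of -3.17 to -2.40 and adjusted p of 0.0192 to 0.115. It was lost without BATKO 4 °C mouse 7, 8 or 12, without BATKO 30 °C mouse 15, 16 or 17, without CTRL 4 °C mouse 1 or 2 and without any of CTRL 30 °C mice 19 to 22. At 4 °C BATKO mice had 11.6-fold less Bmp8b than CTRL mice (log2 -3.53, SE 0.39, edgeR adjusted p = 0.000397), and at 30 °C the difference was not called (log2 -0.63, 95% interval -1.56 to 0.30, edgeR adjusted p = 0.654). Its near copy Bmp8a had at most 3 counts in any mouse and 0 in 50 of the 59.

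Fgf1 rose with cold in CTRL mice and was not called in BATKO mice. In CTRL mice its normalized counts were 154, 170.4, 339.8 and 298 at 30 °C and 689, 621 and 648 at 4 °C (2.71-fold, log2 1.44, SE 0.28, edgeR adjusted p = 0.000467). In BATKO mice they were 203, 246, 286, 293 and 231 at 30 °C and 233, 206, 212.5 and 94.1 at 4 °C (log2 -0.43, 95% interval -0.93 to 0.06, edgeR adjusted p = 0.184). All CTRL mice at 4 °C were above all other mice of the experiment. The responses differed by -1.88 on the log2 scale (SE 0.38, edgeR adjusted p = 0.0316), a call kept in 8 of the 16 fits that left out 1 mouse, with differences of -2.09 to -1.64 and adjusted p of 0.0203 to 0.0936. It was lost without BATKO 4 °C mouse 8, BATKO 30 °C mouse 14, 16 or 17, CTRL 4 °C mouse 1 or 2, or CTRL 30 °C mouse 19 or 20. At 4 °C Fgf1 was 3.50-fold lower in BATKO than in CTRL mice (log2 -1.81, SE 0.28, edgeR adjusted p = 0.00558) and at 30 °C the difference was 0.07 (95% interval -0.42 to 0.56, edgeR adjusted p = 0.935).

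**Figure D3:**
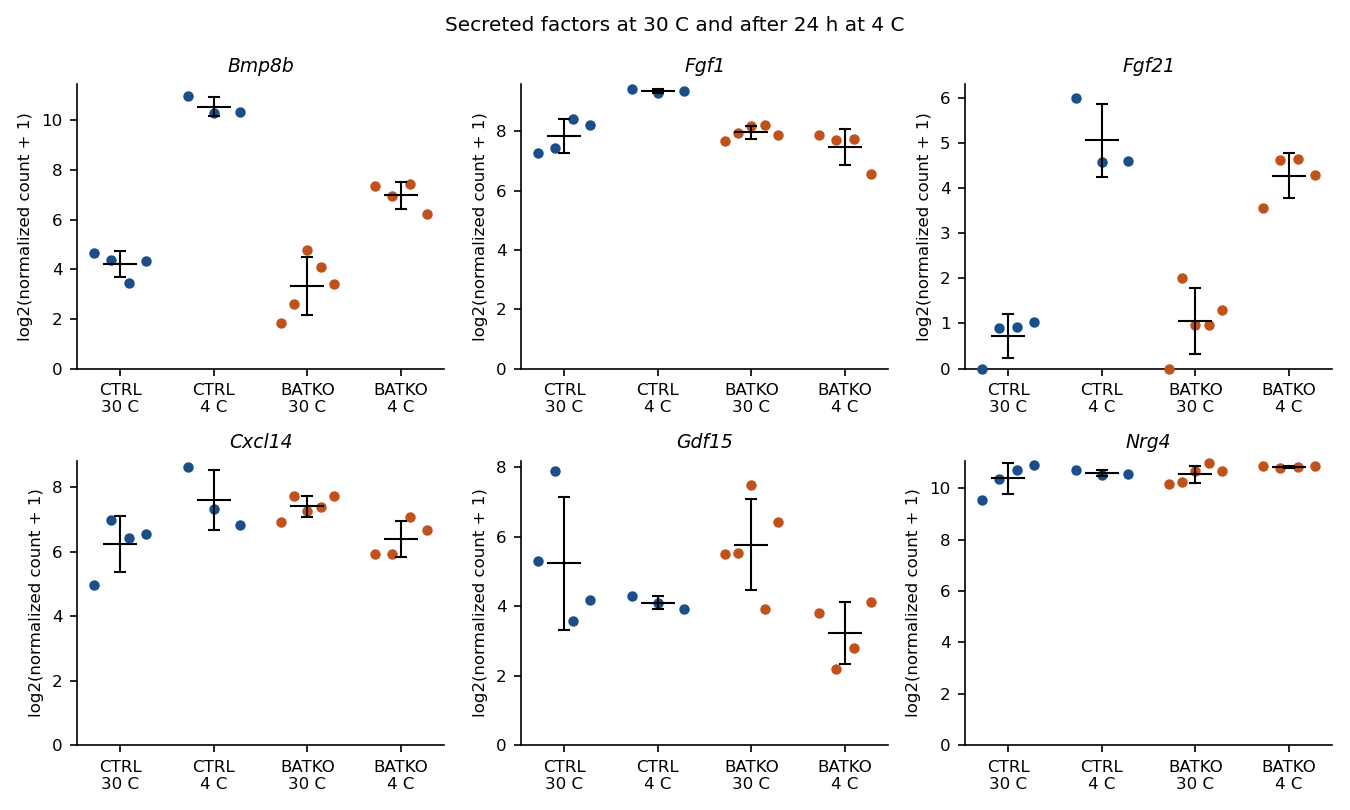
Log2(normalized count + 1) of 6 members at 30 °C and after 24 h at 4 °C, CTRL in blue and BATKO in orange, where points are single mice and bars the mean and SD, with 3 to 5 mice a group. Bmp8b and Fgf21 rise without overlap in both genotypes, Fgf1 rises in CTRL mice alone, and Nrg4 overlaps in all groups of the same genotype.

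Fgf21 appeared in the cold in both genotypes. CTRL mice had 0, 1, 1 and 1 counts at 30 °C and 51, 17 and 20 at 4 °C, normalized counts of 62.6, 22.7 and 23.3, a ratio of 52.8 per unit of depth with a 95% counting interval of 17.5 to 261. BATKO mice had 0, 3, 1, 1 and 2 counts at 30 °C and 10, 20, 20 and 18 at 4 °C, a ratio of 15.3 with an interval of 7.02 to 39.4. All mice in the cold were above all mice at 30 °C. The fitted changes were 5.48 (SE 0.64, edgeR adjusted p = 4.10e-06) and 3.81 on the log2 scale (SE 0.54, edgeR adjusted p = 5.21e-05), and they did not differ beyond the threshold (difference -1.67, 95% interval -3.67 to 0.33, edgeR adjusted p = 0.396). Fgf21 passed the filter only through the mice in the cold, so that some difference had to appear. Without CTRL 4 °C mouse 1, the mouse at 62.6, it fell below the filter and was not tested. The CTRL call was kept in the 6 other fits that left out 1 CTRL mouse.

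Cxcl14 rose with cold in CTRL mice, a call that rested on 1 mouse, and was not called in BATKO mice. In CTRL mice it had normalized counts of 30.4, 126, 84.9 and 93.0 at 30 °C and 396, 159 and 113 at 4 °C, with overlap (log2 1.41, SE 0.43, edgeR adjusted p = 0.0127). Without CTRL 4 °C mouse 1, the mouse at 396, the difference was 0.67 (edgeR adjusted p = 0.212). In BATKO mice it had 120.2, 212, 152, 166 and 210.5 at 30 °C and 59.5, 60.0, 134 and 100.2 at 4 °C, a difference not called by edgeR (log2 -0.96, 95% interval -1.73 to -0.19, adjusted p = 0.0607) and called by DESeq2 (adjusted p = 0.0257). The difference of responses was -2.38 (SE 0.59, edgeR adjusted p = 0.0581, DESeq2 adjusted p = 0.00288).

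Gdf15 varied widely at 30 °C. CTRL mice had normalized counts of 38.2, 237, 10.8 and 16.9 at 30 °C and 18.4, 16.0 and 14.0 at 4 °C (log2 -2.23, 95% interval -4.15 to -0.30, edgeR adjusted p = 0.0702), a difference that DESeq2 called (adjusted p = 0.0492). Without CTRL 30 °C mouse 20, the mouse at 237, it was -0.45 (edgeR adjusted p = 0.652). BATKO mice had 44.3, 45.4, 177, 14.2 and 84.6 at 30 °C and 13.0, 3.53, 5.97 and 16.4 at 4 °C, and Gdf15 fell with overlap (log2 -2.87, SE 0.90, edgeR adjusted p = 0.0182). That call was lost without BATKO 4 °C mouse 8 or BATKO 30 °C mouse 15 (edgeR adjusted p of 0.0555 and 0.0515). Nrg4 was not called in either genotype, with 1416 ± 516 and 1549 ± 118 normalized counts in CTRL mice (SD, n = 4 and 3, log2 0.13, 95% interval -0.35 to 0.61, edgeR adjusted p = 0.680) and 1525 ± 349 and 1835 ± 55.25 in BATKO mice (n = 5 and 4, log2 0.27, 95% interval -0.15 to 0.69, edgeR adjusted p = 0.338). At 4 °C Nrg4 was higher in BATKO mice without overlap, at 1759 to 1885 against 1460 to 1683 in CTRL mice. That difference was not called (log2 0.24, edgeR adjusted p = 0.672).

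Slit2 and Il6 stayed below the filter at both temperatures. BATKO mice had 3, 3, 6, 4 and 5 Slit2 counts at 30 °C and 1, 1, 2 and 1 at 4 °C, without overlap (exact permutation p = 0.0159, the smallest that 5 against 4 mice allow). Per unit of depth the summed counts at 30 °C were 2.67 times those at 4 °C, with a 95% counting interval of 0.982 to 9.08 for 21 against 5 counts, which includes 1. CTRL mice had 3, 2, 7 and 4 against 0, 1 and 2, with overlap (exact permutation p = 0.114, where 0.0571 is the smallest possible). Il6 had 0 counts in all 7 mice at 4 °C, which allows up to 0.233 to 0.327 CPM before TMM scaling, depending on the library, and at 30 °C 0 to 6 counts in CTRL and 0 to 4 in BATKO mice, with overlap in both genotypes (exact permutation p = 0.571 and 0.0794, where 0.0571 and 0.0159 are the smallest possible). Over the whole study Il6 had 0 counts in 37 mice and 35 counts in all.

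In the cold 4 of the 6 tested members were called higher in CTRL mice and none lower, against 49.1% of all genes, and in BATKO mice 2 were called higher and 1 lower, against 40.3%. Fgf21 is among those called higher in both genotypes and was tested only because of the mice in the cold, so that these counts are no support for the members as a group. The difference of responses was called for 2 members against 1.12% of all genes (149 genes by edgeR and 652 by DESeq2), and BATKO mice differed from CTRL mice in 2 members at 4 °C (2.16% of all genes) and in none at 30 °C (0.00754%). These comparisons share groups. The receptor Erbb4, through which NRG4 signals, fell in both genotypes, from 101 ± 11.4 to 10.3 ± 2.14 normalized counts in CTRL mice (SD, n = 4 and 3, log2 -3.27, SE 0.32, edgeR adjusted p = 7.25e-07) and from 77.1 ± 16.3 to 18.8 ± 8.78 in BATKO mice (n = 5 and 4, log2 -2.04, SE 0.25, edgeR adjusted p = 1.49e-05). In CTRL mice 3 of 4 ERBB receptor genes were lower, 1 of 4 FGF receptor genes was higher, 1 of 7 BMP receptor genes was higher and 2 lower, and all 3 processing proteases were higher. Pcsk6, a proprotein convertase, responded differently in BATKO mice (difference -1.20, SE 0.22, edgeR adjusted p = 0.0220).

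Of 29 other tested genes for secreted factors, 5 were higher and 6 lower in CTRL mice in the cold, and 3 were higher and 11 lower in BATKO mice, where over all 13267 genes 3514 were higher and 3000 lower in CTRL mice (49.1% called) and 2836 and 2504 in BATKO mice (40.3%). Inhbb, an activin and inhibin subunit, fell from 43.5 ± 8.83 to 0.409 ± 0.708 normalized counts in CTRL mice (edgeR adjusted p = 1.65e-06), Igf1 fell (log2 -2.38, SE 0.22, edgeR adjusted p = 4.96e-07), and S100b, also a Schwann cell marker, rose (log2 2.68, SE 0.35, edgeR adjusted p = 1.13e-05). Of 11 integrated stress response genes 2 were higher and 1 lower in CTRL mice, with Atf5 at 412 ± 112 and 1881 ± 451 normalized counts (log2 2.19, SE 0.26, edgeR adjusted p = 5.54e-06). Of 4 inflammatory cytokine genes 3 were lower in CTRL and 2 in BATKO mice. The 7 T and B cell markers, none of them tested for low counts, summed to 2.62 to 4.00 CPM at 30 °C and 0.737 to 1.81 CPM at 4 °C in CTRL mice, without overlap, and to 1.57 to 4.00 and 1.51 to 6.28 CPM in BATKO mice. The brown adipocyte markers summed to 879 to 3047 CPM at 30 °C and 18149 to 23446 CPM at 4 °C in CTRL mice, and to 1888 to 3305 and 9969 to 17949 CPM in BATKO mice. The 5 general adipocyte markers summed to 5309 to 6432 and 9996 to 10855 CPM in CTRL mice and to 5403 to 6375 and 9582 to 12209 CPM in BATKO mice, without overlap in either. The 8 macrophage markers summed to 82.3 to 143 CPM at 30 °C and 71.0 to 82.1 CPM at 4 °C in CTRL mice, without overlap, and to 63.4 to 86.5 and 82.6 to 118 CPM in BATKO mice, with overlap. The 6 markers of Schwann cells and nerve, S100b among them, summed to 50.2 to 74.5 and 129 to 163 CPM in CTRL mice and to 45.6 to 78.3 and 42.5 to 105 CPM in BATKO mice, with Th at 0 in both groups at 4 °C. At 4 °C the brown adipocyte, macrophage and Schwann cell sums also did not overlap between the genotypes. The 7 muscle markers varied from 12.0 to 4342 CPM among CTRL mice at 30 °C. The part of these cells in the members' changes was not tested.

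After 3.5 days of HFD 2 of the 5 tested members were called in CTRL mice, both higher, against 3.94% of all genes. Bmp8b had normalized counts of 12.8, 8.09, 16.8 and 10.9 on chow and 24.2, 27.2, 64.2 and 24.6 on HFD, without overlap and with CTRL HFD mouse 10 apart from the rest (2.88-fold, log2 1.52, SE 0.35, edgeR adjusted p = 0.0261). Its mean on chow was 12.1 in CTRL and 3.87 in BATKO mice, near or below the filter. It therefore passed the filter in part through the HFD mice, which favoured a difference. Fgf1 had 174, 222, 304 and 274 on chow and 626, 628, 295 and 436 on HFD, with CTRL HFD mouse 10 inside the chow range (2.04-fold, log2 1.02, SE 0.23, edgeR adjusted p = 0.0245). Each call was kept in 4 of the 8 fits that left out 1 mouse, and both were lost when these 2 groups were fitted alone (edgeR adjusted p = 0.0598 for Bmp8b and 0.0550 for Fgf1). The Bmp8b call was lost without CTRL chow mouse 1, 2 or 4 or CTRL HFD mouse 10, and the Fgf1 call without CTRL chow mouse 1, 2 or 4 or CTRL HFD mouse 9.

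**Figure D4:**
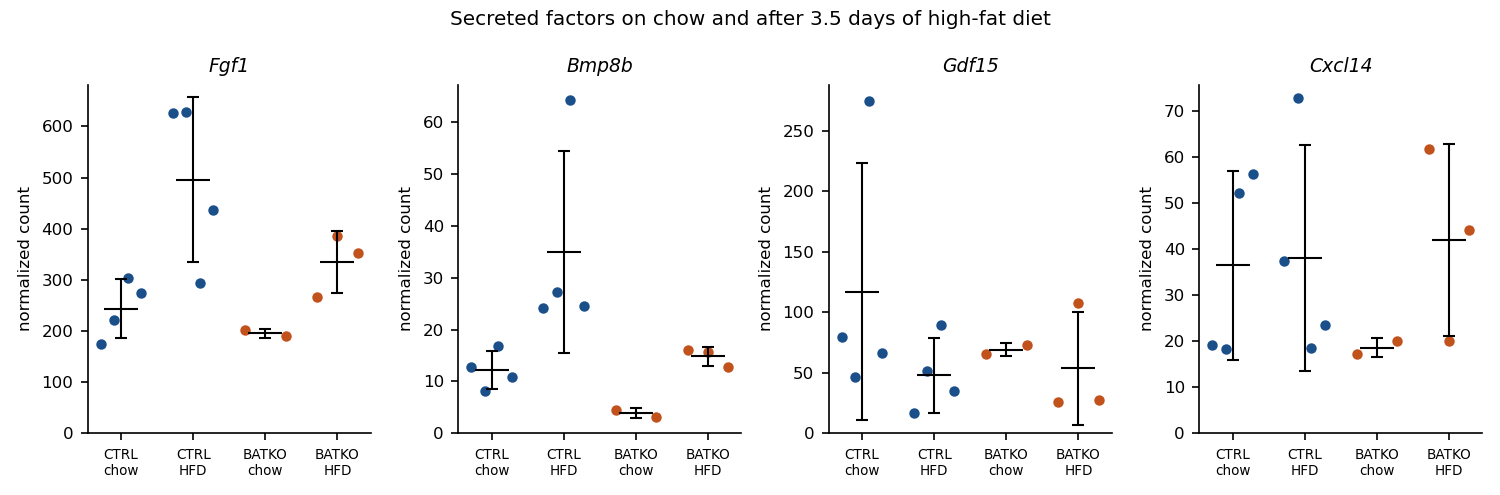
Normalized counts of 4 members on chow and after 3.5 days of HFD, CTRL in blue and BATKO in orange, where points are single mice and bars the mean and SD, with 2 to 4 mice a group. Bmp8b is higher on HFD without overlap in both genotypes, and CTRL HFD mouse 10 stands apart at 64.2.

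In BATKO mice no member was called on HFD, against 0.0696% of all genes (9 genes by edgeR and 226 by DESeq2). Bmp8b had 4.58 and 3.16 normalized counts on chow and 16.0, 15.7 and 12.7 on HFD (log2 1.91, 95% interval 0.73 to 3.09, edgeR adjusted p = 0.182). Fgf1 had 202 and 189.6 on chow and 267, 385 and 353 on HFD (log2 0.78, 95% interval 0.19 to 1.37, edgeR adjusted p = 0.252, and 0.0395 with no filter). Nrg4 had 1384 and 1392 against 2151, 1853 and 1825 (log2 0.48, 95% interval 0.20 to 0.77, edgeR adjusted p = 0.165). Cxcl14 had 17.2 and 20.0 against 61.7, 20.1 and 44.1 (log2 1.13, 95% interval -0.18 to 2.44, edgeR adjusted p = 0.436), and Fgf21, below the filter, had 1 and 0 counts against 4, 3 and 3 (exact permutation p = 0.2, the smallest possible). For these 5 members the BATKO groups did not overlap, though with 3 against 2 mice an exact permutation p is 0.2 at smallest. The share of all genes without overlap was not counted, so that this is no result about the members as a group. The brown adipocyte markers of the same mice summed to 3033 to 4166 CPM on chow and 5476 to 7324 CPM on HFD, the macrophage markers to 189 to 245 and 103 to 186 CPM, the markers of smooth muscle and pericytes to 461 to 569.8 and 603 to 653 CPM, those of Schwann cells and nerve to 40.1 to 45.9 and 57.6 to 87.7 CPM, and those of T and B cells to 2.51 to 2.80 and 1.36 to 1.85 CPM, all without overlap. Their part in the differences was not tested. The diet response differed between genotypes for no member and for no gene of 12932 (0%, with 740 genes at an unadjusted p under 0.05 by edgeR and 0 called by DESeq2). The difference was 0.39 for Bmp8b (95% interval -0.97 to 1.74, edgeR adjusted p = 0.982) and -0.24 for Fgf1 (95% interval -0.97 to 0.48, edgeR adjusted p = 0.978).

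Gdf15 ranged from 46.5 to 275 normalized counts in CTRL mice on chow, with CTRL chow mouse 3 highest, and from 16.5 to 89.5 on HFD (log2 -1.27, 95% interval -2.44 to -0.11, edgeR adjusted p = 0.231), which was called when no genes were filtered out (edgeR adjusted p = 0.00691). Without CTRL chow mouse 3 it was -0.43 (edgeR adjusted p = 0.636). Cxcl14 was 18.2 to 56.4 on chow and 18.5 to 72.8 on HFD in CTRL mice (log2 0.05, 95% interval -0.87 to 0.97, edgeR adjusted p = 0.963), and Nrg4 was 1492 to 2069 and 1615 to 1889 (log2 0.07, 95% interval -0.15 to 0.29, edgeR adjusted p = 0.777). Between the genotypes no member was called on HFD or on chow, and neither was any gene (0% in both, with 691 and 1024 genes at an unadjusted p under 0.05 by edgeR, and 9 and 33 called by DESeq2). Bmp8b had lower normalized counts in every BATKO than in every CTRL mouse of the same diet, with a difference of -1.25 on the log2 scale on HFD (95% interval -1.97 to -0.52, edgeR adjusted p = 0.884) and of -1.63 on chow (95% interval -2.79 to -0.47, edgeR adjusted p = 0.492). Without overlap either, Nrg4 had lower normalized counts in BATKO mice on chow (log2 -0.28, 95% interval -0.55 to -0.01, edgeR adjusted p = 0.660), and Fgf21 had 3 or 4 counts in BATKO and 0 to 2 in CTRL mice on HFD (exact permutation p = 0.0571, the smallest possible). Marker sums separated the same groups. On chow the macrophage markers summed to 189 to 245 CPM in BATKO and 86.2 to 101 CPM in CTRL mice, the white adipocyte markers to 205 to 327 and 99.7 to 141 CPM (Tcf21 at 0 in both groups and Hoxc9 in BATKO mice), the general adipocyte markers to 7497 to 8083 and 6592 to 7476 CPM, and those of Schwann cells and nerve to 40.1 to 45.9 and 58.5 to 84.1 CPM. On HFD the endothelial markers summed to 595 to 673 CPM in BATKO and 416 to 594 CPM in CTRL mice, the general adipocyte markers to 7992 to 8056 and 7070 to 7990.2 CPM, and those of T and B cells to 1.36 to 1.85 and 0.774 to 1.27 CPM. Fgf21, Il6 and Slit2 had at most 6 counts in any mouse of the diet experiment. Among receptors 1 gene was called in CTRL mice on HFD, Fgfr3 (log2 0.95, SE 0.21, edgeR adjusted p = 0.0246), where 509 of all 12932 genes tested were called (3.94%). The 8 macrophage markers summed to 86.2 to 101 CPM on chow and 127 to 282 CPM on HFD in CTRL mice, and the 7 preadipocyte and fibroblast markers to 366 to 509 and 590 to 669.95 CPM, both without overlap. The 7 T and B cell markers summed to 1.94 to 3.04 and 0.774 to 1.27 CPM, also without overlap, and the brown adipocyte markers to 2603 to 4340 and 4014 to 6014 CPM. Their part in the members' changes was not tested.

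**Figure D5:**
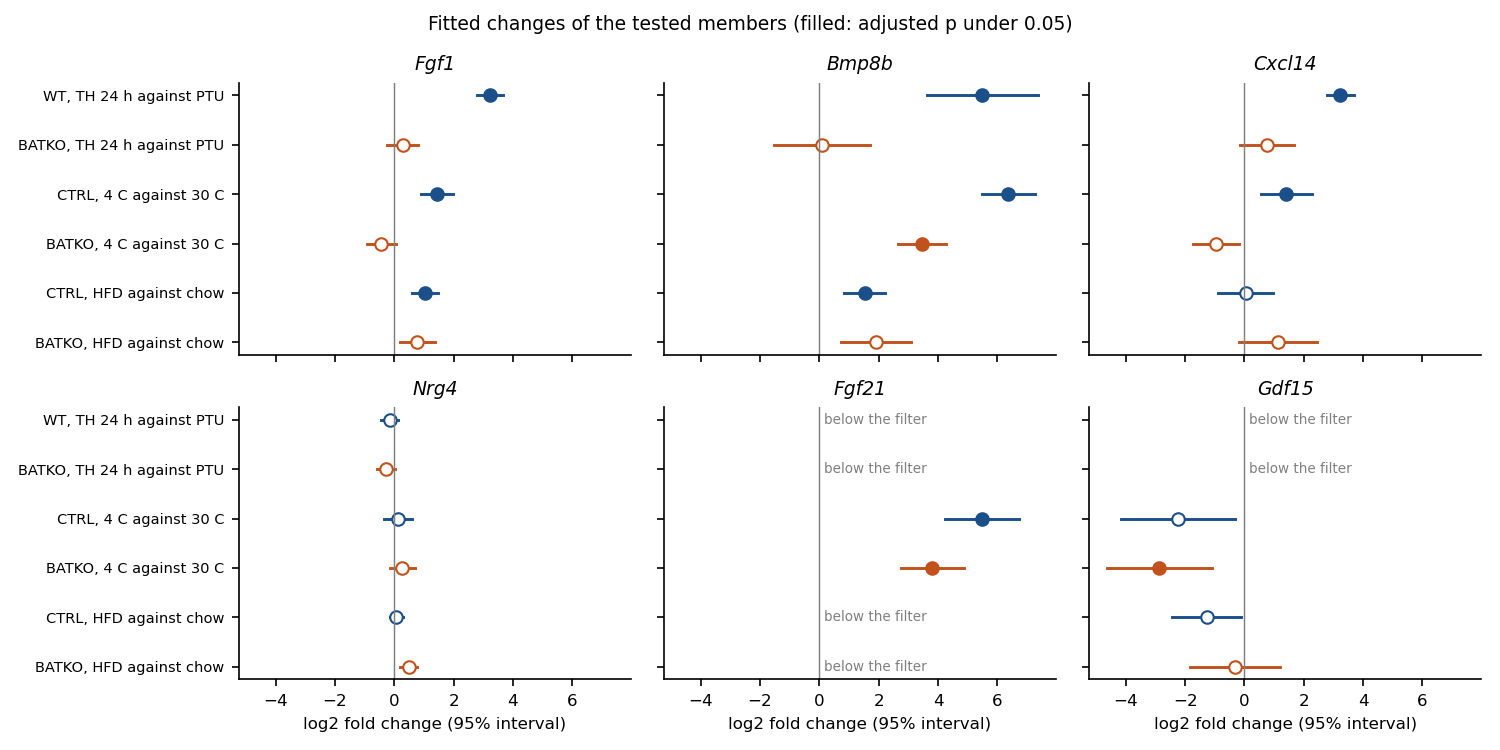
Fitted log2 fold changes with 95% intervals of the 6 members tested in at least 1 experiment, under hormone (24 h against PTU), cold (4 °C against 30 °C) and HFD (against chow), WT or CTRL in blue and BATKO in orange, where filled points have an adjusted p under 0.05. Fgf1 is called in WT or CTRL mice under all 3 conditions and so is Bmp8b, while Nrg4 is called in none of the comparisons shown. Bmp8b passed the filter of the hormone fit only through the 24 h mice and that of the diet fit in part through the HFD mice.

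Across the 3 experiments Fgf1 was called higher in WT or CTRL mice under 24 h of hormone, cold and HFD. Bmp8b was called higher under the same conditions, and Cxcl14 under hormone and cold. For Bmp8b the filter was passed through the 24 h mice in the hormone fit and in part through the HFD mice in the diet fit. The HFD calls of Fgf1 and Bmp8b were each lost in 4 of the 8 fits that left out 1 mouse and when the 2 groups were fitted alone, and the Cxcl14 cold call was lost without CTRL 4 °C mouse 1. The fitted changes of Fgf1 were 3.24, 1.44 and 1.02 on the log2 scale, and those of Bmp8b 5.497, 6.38 and 1.52. These experiments had separate tables and controls, and their sizes were not compared by a test. Set per length of the merged exons, Nrg4 had the highest level of the 8 members in 14 of the 15 groups, from 12.2 CPM per kb in BATKO TH mice to 67.3 CPM per kb in WT mice at 12 h. In CTRL mice at 4 °C Bmp8b was highest, at 36.3 CPM per kb, ahead of Nrg4 at 23.5, Cxcl14 at 11.2, Fgf1 at 11.0, Fgf21 at 3.50 and Gdf15 at 0.802 CPM per kb. In hypothyroid WT mice the order was Nrg4 at 45.0, Fgf1 at 1.18, Cxcl14 at 0.912 and Fgf21 at 0.446 CPM per kb, with the other members below 0.1. Exons of Nrg4 share 368 bases with Fbxo22 and 177 with Gm15625, and exons of Bmp8b share 339 bases with Gm17244 and 133 with Ppie, all on the opposite strand, and since no source states whether counting used strand, reads in those stretches could belong to either gene.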

How the data were processed

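RNA of mouse BAT was extracted with Trizol, made into libraries with a Lexogen total RNA SENSE kit and sequenced on an Illumina instrument. The authors aligned reads with Bowtie to GRCm38 (mm10, and their processing notes name Bowtie2 2.3.2.2), removed alignments of quality below 10 and counted reads per gene with htseq-count, and the 3 deposited tables hold these raw counts. The annotation release and the strand setting of the counting were not given in the sources used here. Groups came from the sample labels, and all columns matched a sample. The 8 members, the gene lists and the tests were chosen with earlier results of these data known.

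Counts were normalized by TMM and tested by edgeR 4.0.16 (quasi-likelihood) in R 4.3.3 with limma 3.58.1, among genes whose normalized count, averaged over the fitted mice, was above 10, with Benjamini-Hochberg adjustment over all genes and a threshold of 0.05. The WT time points were fitted over the 20 WT mice, BATKO hormone comparisons over all 30 mice of that experiment, temperature over 16 mice and diet over 13. SE was the fold change divided by the square root of F, and 95% intervals used 1.96 SE. Members below the filter were compared by exact two-sided permutation tests of mean log2(CPM + 0.5). A limit for 0 counts was set at 3 counts over the library total without TMM scaling, unlike the other CPM values. Count ratios carry exact binomial intervals. Limits and these intervals cover counting error only. The scripts were tested on simulated data.

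Alternatives were DESeq2 1.42.0, RLE size factors, no filter, a mean above 50, a fit of the compared groups alone or of all groups, another pseudocount of 0.1, and leaving out each mouse. Named genes were the 8 members, at most the 5 list genes with the lowest adjusted p among those called per comparison, receptors beside their member, and the 3 genes with the highest Pearson r over the 20 WT mice among genes with a mean normalized count above 50. Furin and Adam17 were named after their values were seen. Promoters came from RefSeq (GRCm38.p6), where 7 of the 8 members matched, and gene positions from GENCODE on GRCm38.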

Additional observations from a re-analysis of the deposited data

Results flagged for a closer look

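Among pairs of a member and a group of 4 or more mice, those with a mean normalized count above 10 in the group were examined, and in 5 of these 54 pairs 1 mouse stood apart from its group by Dixon's test, where chance gives about 5%. Bmp8b in WT mice at 3 h, where B11 held nearly all the reads, was below that limit and not among them. Bmp8b was 64.2 normalized counts in CTRL HFD mouse 10 and 24.2 to 27.2 in the others, and 88.6 in WT 24 h mouse B27 and 36.2 to 43.9 in the others. Cxcl14 was 37.7 in the library labelled BATKO PTU 4 and 3.24 to 12.2 in the others. Gdf15 was 237 in CTRL 30 °C mouse 20 and 10.8 to 38.2 in the others, and 275 in CTRL chow mouse 3 and 46.5 to 79.8 in the others.

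The response differed between genotypes past the threshold of edgeR's quasi-likelihood test in 5 cases. Under hormone the BATKO response minus the WT response was -2.96 on the log2 scale for Fgf1, -5.41 for Bmp8b and -2.48 for Cxcl14. Bmp8b passed the filter of this fit through the WT mice at 24 h, so that its case is no support for a difference. Genotype and library series cannot be told apart in the hormone experiment. In the cold the BATKO response minus the CTRL response was -1.88 for Fgf1 and -2.90 for Bmp8b. Of these, only the Fgf1 hormone difference was called in every fit that left out 1 mouse and without the 3 libraries that go against their labels, where those apply.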

How the results depend on the processing

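No paired analysis was possible because the groups compared share no mouse, and numbers that recur between genotypes or experiments name different mice. In 10 of 20 comparisons the number of members called stayed within 1.5 times under every alternative. Without the filter it was 2 in place of 1 at 3 h, 5 in place of 3 at 24 h, 2 in place of 1 from 3 to 6 h and 1 in place of 0 on HFD in BATKO mice. With DESeq2 it was 2 from 3 to 6 h. With a mean above 50 it was 1 in BATKO mice in the cold (3 in the report) and 1 on HFD in CTRL mice (2 in the report), and with these groups fitted alone it was 0 on HFD in CTRL mice. Without the 3 libraries that go against their labels it was 1 for the hormone response in BATKO mice and 1 for the difference of hormone responses. Leaving out 1 mouse gave 1 to 3 for that difference, 2 to 5 in the cold in CTRL mice, 0 to 3 for the difference of cold responses and 0 to 2 on HFD in CTRL mice.

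Over 67 fits that left out 1 mouse, the log2 difference changed sign for these members, none of them called. Under hormone it was -0.063 to 0.10 for Nrg4 and -0.54 to 4.12 for Bmp8b at 3 h, -2.24 to 1.54 for Bmp8b and -0.023 to 0.14 for Cxcl14 from 3 to 6 h, -0.87 to 1.30 for Bmp8b in BATKO mice and -0.24 to 0.069 for Nrg4 between responses. In the cold Nrg4 was -0.083 to 0.30 in CTRL mice and -0.050 to 0.35 between responses. Between genotypes at 30 °C Fgf1 was -0.10 to 0.28, Nrg4 -0.11 to 0.26 and Gdf15 -0.68 to 1.72. On HFD in CTRL mice Nrg4 was -0.0031 to 0.17 and Cxcl14 -0.49 to 0.32. Gdf15 was -1.36 to 0.0071 on HFD in BATKO mice and -0.059 to 1.48 between diet responses. Between genotypes on HFD Gdf15 was -0.84 to 0.70 and Cxcl14 -0.26 to 0.64, and on chow Gdf15 was -1.02 to 0.087. The cause of these changes was not tested. Depth limits Il6, at 6 counts or fewer in every mouse, and Slit2 and Fgf21 in the groups where they had only a few counts.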
